A study of Mus musculus with 194 samples.

Results

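Transcripts of 10 genes that restrain mitogen-activated protein (MAP) kinase signaling, out of the 19363 genes in the count table, were followed through 5 structures of the mouse reward circuitry after cocaine. The members were taken by name: the MAP kinase phosphatases Dusp1, Dusp4, Dusp5, Dusp6 and Dusp14, the Sprouty genes Spry2 and Spry4, the Spred genes Spred1 and Spred2, and Errfi1. All 10 had a row in the table. The rule used names and no measured value, but the names were chosen with earlier results of these data known. The structures, each dissected from brain slices, were the dorsal striatum (DS), the nucleus accumbens (NAc), the amygdala (Amy), the lateral hypothalamus (LH) and the limbic cortex (LCtx). Their RNA was sequenced from its 3′ ends. Male C57BL/6OLAHSD mice, aged 6 to 7 weeks on arrival, received saline for 3 days and then cocaine at 20 mg/kg intraperitoneally: once (acute), as the last of 5 daily doses (repeated), or once more after 21 days of abstinence from such a series (challenge). Tissue was taken 1, 2 or 4 hr after the last dose. The 0 hr mice, which received no injection that day, were cocaine-naive (acute), 24 hr past the 4th dose (repeated) or abstinent (challenge). Because no injected control was among the groups used, cocaine and the injection itself cannot be told apart in a comparison with 0 hr.

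The MAP kinases ERK, JNK and p38 are switched on by phosphorylation of a threonine and a tyrosine, and the dual-specificity phosphatases remove both phosphates. ERK signaling in striatal neurons is engaged by dopamine and glutamate receptors together and is one of the routes by which psychostimulants turn on immediate-early genes (IEGs). Dusp1, Dusp4 and Dusp5 encode nuclear phosphatases, Dusp6 a cytoplasmic one that prefers ERK, and Dusp14 a small phosphatase without the MAP kinase-docking domain of the others. Sprouty and Spred proteins act further upstream, where they limit activation of Ras and Raf by growth factor receptors, and the Errfi1 protein binds and inhibits the EGF receptor.

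The table held libraries of 166 mouse samples, with 1193306 to 10367769 counted reads each (median 3296648). A sample is 1 structure of 1 mouse. By the cohort and animal numbers in the labels the samples came from 48 animals, most of which gave several structures, so results in different structures are not independent, and 28 samples had libraries in 2 of the 9 sequencing runs. The time comparisons used 1 library per mouse sample, 164 in all, with 1 to 5 mice per group. Values below are CPM (counts scaled to a common library total) unless a log2 fold change is named. The dissections could be told apart by their markers: the summed level of 6 striatal projection neuron genes was 4239 to 6375 CPM in the DS and 2199 to 3951 CPM in the NAc, against at most 520.7 CPM elsewhere, and 4 hypothalamic genes summed to 9315 to 16119 CPM in the LH. Blood cell genes summed to 11020 CPM in 1 LCtx library, against at most 1070 CPM in any library of the other structures. In bulk tissue, fewer cells of a type and less RNA per cell cannot be told apart.

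Of the 10 members, 8 had a promoter window (250 bases before and 50 after the start) in the RefSeq set for GRCm38.p6. The windows were searched on both strands for the cAMP response element (CRE, TGACGTCA) and its 5-base core TGACG, the AP-1 site TGANTCA, the CArG box bound by serum response factor, and the EGR site, each by its letters without mismatch. The core lies within every CRE and was counted there too. The 3 windows printed here are those of members holding a full CRE or a CArG box, motifs known from IEG promoters, with the matches in capitals. The 1st is Dusp1 (chr17:26508423-26508722, minus strand), the 2nd Dusp5 (chr19:53528895-53529194, plus strand) and the 3rd the downstream of the 2 Errfi1 windows (chr4:150854820-150855119, plus strand).
Dusp1: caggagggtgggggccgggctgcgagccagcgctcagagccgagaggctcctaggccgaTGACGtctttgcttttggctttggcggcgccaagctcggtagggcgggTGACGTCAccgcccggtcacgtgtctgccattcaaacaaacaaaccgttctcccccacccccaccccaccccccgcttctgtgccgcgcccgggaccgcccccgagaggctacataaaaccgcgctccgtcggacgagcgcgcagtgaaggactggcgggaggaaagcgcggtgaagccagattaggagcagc
Dusp5: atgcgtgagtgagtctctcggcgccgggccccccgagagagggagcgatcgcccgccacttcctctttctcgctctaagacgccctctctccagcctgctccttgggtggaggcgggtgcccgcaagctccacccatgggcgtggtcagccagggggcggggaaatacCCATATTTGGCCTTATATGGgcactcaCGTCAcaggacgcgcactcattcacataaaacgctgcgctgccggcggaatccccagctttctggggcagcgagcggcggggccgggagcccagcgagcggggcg
Errfi1: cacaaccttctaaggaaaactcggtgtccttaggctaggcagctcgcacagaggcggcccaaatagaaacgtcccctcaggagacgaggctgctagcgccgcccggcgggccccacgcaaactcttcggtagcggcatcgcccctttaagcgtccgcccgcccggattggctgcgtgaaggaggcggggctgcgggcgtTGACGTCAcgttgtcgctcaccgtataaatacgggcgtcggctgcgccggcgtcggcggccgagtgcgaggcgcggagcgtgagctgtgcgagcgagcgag
The Dusp1 window held a CRE beginning 143 bases before the start and a separate TGACG 191 bases before it. The Dusp5 window held 2 adjoining CArG boxes, 82 and 72 bases before the start, and a TGACG on the opposite strand 55 bases before it. In Errfi1 the CRE began 51 bases before the start. The Spred2 window held a TGACG on the opposite strand, and the windows of Dusp6, Dusp14, Spry2 and Spred1 and the upstream window of Errfi1 held none of these letters. Over all 32851 promoter windows, 1.79% held a CRE, 20.8% the core, 7.81% an AP-1 site, 1.63% a CArG box and 3.47% an EGR site.

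Do transcripts of these feedback inhibitors rise after cocaine in the DS, and for how long? The 4 phosphatase transcripts Dusp1, Dusp5, Dusp6 and Dusp14 rose after cocaine in the DS in each of the 3 experiences in the main libraries, 1 per mouse, where none of the 10 members was called lower. In second libraries of 2 mice per group, the extreme of Dusp5 and Dusp6 after challenge lay at 4 hr, below 0 hr. Both were called there over all times, but not in the contrast of 1 hr or 4 hr alone. At 1 hr both stood above 0 hr. Of their other 4 calls, 3 were not made in those libraries, nor was that of Dusp14 after challenge. In the main libraries the 4 were the same after acute, repeated and challenge cocaine, while Dusp4, both Sprouty genes, both Spred genes and Errfi1 did not pass the test in any of them. A gene was called where the test over all times gave an adjusted p under 0.05 across all genes and the fold at its peak exceeded 1.2. Among the 12918 genes tested in the DS, the share called higher was 1.54% after acute, 0.418% after repeated and 0.635% after challenge cocaine. All 10 members passed the low-count filter in the DS.

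Dusp1, whose nuclear product inactivates p38, JNK and ERK, was measured in the 4 naive mice at 31.9, 43.7, 32.7 and 27.0 CPM and in the 4 mice 1 hr after acute cocaine at 65.8, 71.7, 74.2 and 86.6 CPM. After repeated cocaine it went from 31.9, 36.5, 26.9 and 26.3 CPM at 0 hr to 96.2, 128, 92.9 and 95.1 CPM at 1 hr. In challenge mice the 0 hr values were 37.4, 55.1 and 33.6 CPM and the 1 hr values 89.7, 145, 85.4 and 82.5 CPM. Every 1 hr mouse lay above every 0 hr mouse of its experience. The log2 fold change at 1 hr was 1.22 ± 0.17 (SE) after acute, 1.76 ± 0.17 after repeated and 1.28 ± 0.17 after challenge cocaine, with adjusted p over all times of 6.56e-13, 3.89e-15 and 3.15e-12. At 2 hr the log2 differences from 0 hr were -0.31, 0.23 and -0.11, and at 4 hr -0.54, -0.14 and -0.28, none of which passed the test.

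Dusp5, an ERK-selective nuclear phosphatase, was scarce at rest. Its levels were 6.44, 5.55, 6.85 and 5.18 CPM in naive mice and 14.1, 16.9, 12.1 and 16.4 CPM 1 hr after acute cocaine. After repeated cocaine the values were 4.96, 8.15, 9.70 and 6.13 CPM at 0 hr and 19.9, 19.6, 18.8 and 28.8 CPM at 1 hr. Challenge took it from 8.39, 8.38 and 11.1 CPM to 17.9, 25.9, 16.2 and 20.7 CPM. Here too the 0 and 1 hr groups did not overlap in any experience. The log2 fold changes were 1.33 ± 0.23, 1.58 ± 0.21 and 1.13 ± 0.21, with adjusted p of 8.34e-06, 3.46e-09 and 4.46e-08. In the second libraries the acute call was lost, at log2 1.83. After challenge Dusp5 still rose there, from 9.16 and 13.85 CPM at 0 hr to 19.2 and 30.2 CPM at 1 hr. The challenge call turned in that its extreme lay at 4 hr, below 0 hr, with values given further on. By 2 hr in the main libraries Dusp5 stood within 0.21 log2 units of 0 hr in the 3 experiences.

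Dusp6 encodes the cytoplasmic ERK phosphatase. In naive mice it stood at 28.8, 44.4, 36.4 and 25.1 CPM, and 1 hr after acute cocaine at 57.8, 73.6, 59.9 and 74.2 CPM. The repeated groups gave 26.6, 52.5, 42.4 and 35.0 CPM at 0 hr and 74.1, 67.2, 71.3 and 54.4 CPM at 1 hr. The challenge groups gave 57.6, 48.0 and 41.3 CPM and then 94.1, 68.3, 89.9 and 81.8 CPM. Groups again did not overlap, although the lowest repeated 1 hr mouse (54.4 CPM) was close to the highest 0 hr mouse (52.5 CPM). The log2 fold changes were 1.06 ± 0.18, 0.77 ± 0.17 and 0.78 ± 0.17 (adjusted p 7.34e-06, 0.00273 and 0.000621). In the second libraries the acute and repeated calls were lost, at log2 0.83 and 0.93. After challenge Dusp6 still rose there, from 58.9 and 63.9 CPM at 0 hr to 97.6 and 104.1 CPM at 1 hr. The challenge call turned in that its extreme lay at 4 hr, below 0 hr. In the main libraries the log2 fold changes at 2 hr were 0.38 ± 0.18, 0.26 ± 0.17 and 0.09 ± 0.18, and did not pass the test.

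Dusp14 was still high at 2 hr, when the other 3 were no longer called. Naive mice stood at 87.1, 81.8, 103.9 and 97.5 CPM, 1 hr mice at 276, 185, 208 and 241 CPM, 2 hr mice at 119.8, 331, 233 and 239.6 CPM, and 4 hr mice at 132, 115, 149 and 138 CPM after acute cocaine. All 12 injected mice were above all 4 naive mice. In the repeated experience the values were 75.9, 108.6, 99.3 and 107.5 CPM at 0 hr, 207, 180.2, 255.3 and 186 CPM at 1 hr, 242, 245, 266, 238 and 138 CPM at 2 hr, and 111, 119, 91.5 and 95.4 CPM at 4 hr. The 1 and 2 hr mice lay above the 0 hr mice, and the 4 hr mice overlapped them.
In challenge mice Dusp14 stood at 217, 225 and 122 CPM at 0 hr, 295, 311, 298 and 345 CPM at 1 hr, 296, 347, 398 and 303 CPM at 2 hr, and 245, 221, 286 and 198 CPM at 4 hr. The 1 and 2 hr groups were above all 0 hr mice, and the 4 hr group overlapped them. The log2 fold change at 1 hr was 1.31 ± 0.18, 1.08 ± 0.18 and 0.74 ± 0.18 after acute, repeated and challenge cocaine, and at 2 hr 1.30 ± 0.18, 1.22 ± 0.17 and 0.86 ± 0.18. The adjusted p over all times was 1.05e-07, 4.57e-08 and 0.0109. In the contrast of 2 hr alone with 0 hr, Dusp14 was the member called in each experience, with adjusted p of 2.96e-05, 1.23e-05 and 0.0145, where 0.619%, 0.0774% and 0.224% of genes were called higher. The challenge call depended on the 0 hr mouse with 122 CPM: without it the log2 fold change at the peak was 0.62 and the adjusted p 0.161. With all mice kept it was lost in DESeq2 (0.86, adjusted p 0.0622), and in second libraries of 2 mice per group (0.60, adjusted p 0.258).

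**Figure D1:**
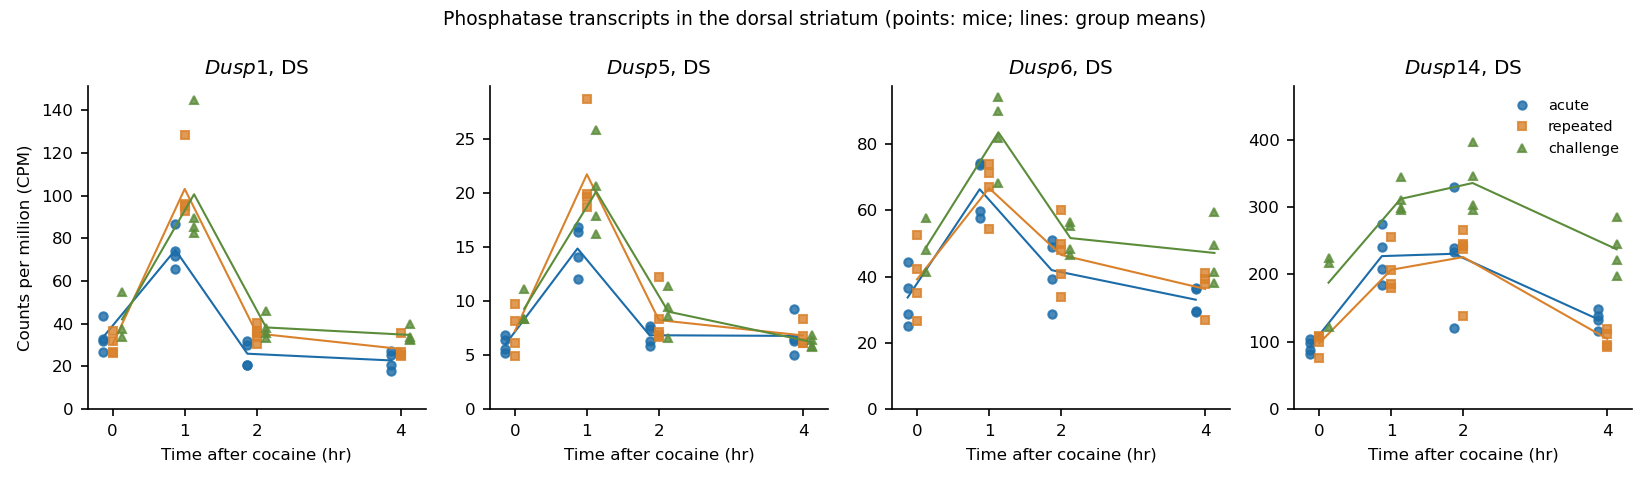
Levels of Dusp1, Dusp5, Dusp6 and Dusp14 in the DS (vertical axes, CPM, a separate scale per gene) against time after cocaine (horizontal axes, hr), with 1 point per mouse and a line through the group means for acute, repeated and challenge cocaine. Dusp1, Dusp5 and Dusp6 peak at 1 hr, whereas Dusp14 is as high at 2 hr as at 1 hr, and its challenge mice lie above the other groups at 0 hr, the lowest of them at 122 CPM.

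The remaining 6 members are given by their values, since none passed the test. Spry2 stood at 40.3 to 49.8 CPM in naive mice and 55.8 to 66.4 CPM 1 hr after acute cocaine, groups that did not overlap. The log2 fold change was 0.46 ± 0.15 with an adjusted p over all times of 0.149, and after repeated and challenge cocaine the 1 hr values were 0.28 ± 0.13 and 0.13 ± 0.13. Spry4 was rare: 1.39 to 2.37 CPM (2 to 8 counts) in naive mice and 3.37 to 7.36 CPM (12 to 27 counts) at 1 hr, a log2 difference of 1.54 ± 0.45 with an adjusted p of 0.0951. After repeated and challenge cocaine the Spry4 difference was 0.27 ± 0.34 and 0.28 ± 0.34. The acute libraries and those of the other experiences came from different runs.

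Spred1 and Spred2, whose proteins bring the Ras inactivator neurofibromin to the membrane, and Errfi1 were not called at any time. In the DS 1 hr after cocaine, the Spred1 log2 difference was -0.001 ± 0.09 (acute), -0.23 ± 0.09 (repeated) and -0.08 ± 0.09 (challenge), so that the 95% intervals ended at 0.17, -0.065 and 0.10 on their upper side. Spred2 was 30.5 to 47.0 CPM in naive mice and 57.5 to 68.8 CPM 2 hr after acute cocaine, a log2 difference of 0.51 ± 0.15 with an adjusted p over all times of 0.0934. Errfi1 showed 1 hr differences of 0.29 ± 0.13, 0.26 ± 0.12 and 0.06 ± 0.13. Its largest upper bound among the 3 was 0.54, under the 1 hr estimates of the 4 called phosphatases after acute cocaine. Dusp4, a nuclear phosphatase related to Dusp1, had 0 to 13 counts in the 48 main DS libraries. In 3 of these it had none, which allows up to 0.929, 0.97 and 0.95 CPM when only counting error is considered (3 counts), and its 1 hr intervals spanned 0 in all 3 experiences, the widest from -0.05 to 3.35 after repeated cocaine. Of 24 second DS libraries sequenced in another run, 12 had no Dusp4 count.

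**Figure D2:**
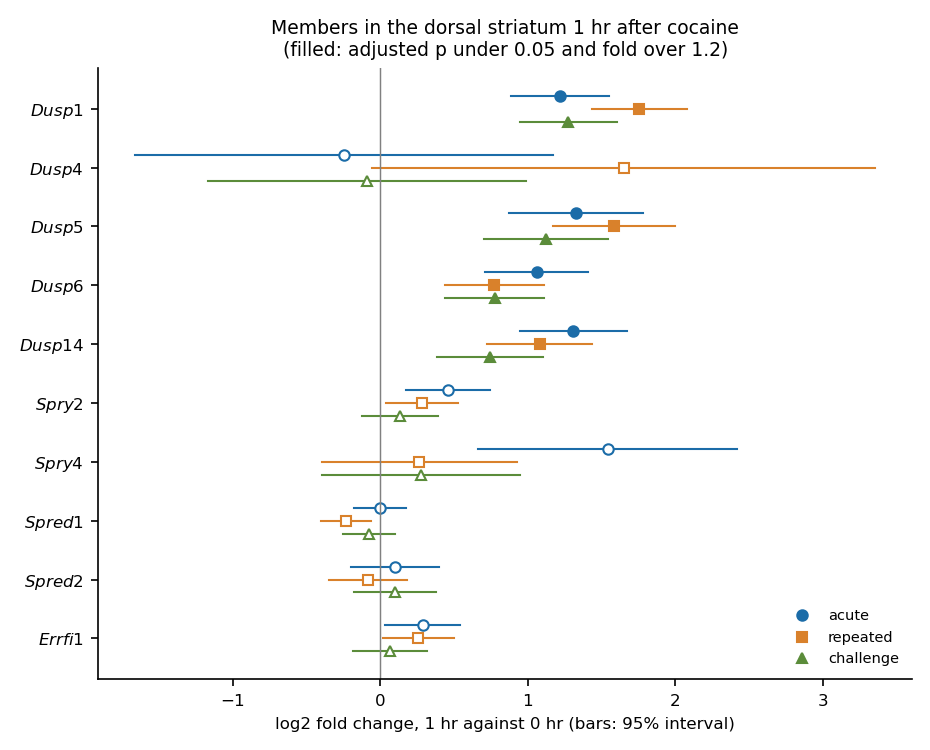
The log2 fold change of each member in the DS 1 hr after cocaine against 0 hr (horizontal axis; bars, 95% interval of the edgeR estimate; filled symbols, adjusted p under 0.05 and fold over 1.2 in that contrast), by experience. Filled symbols are those of Dusp1, Dusp5, Dusp6 and Dusp14, from 0.74 to 1.76, and the wide bars belong to the low-count genes Dusp4 and Spry4.

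Other genes of the pathway were read from lists set by name. Of 14 tested MAP kinase phosphatases and feedback inhibitors outside the 10 members, such as Dusp2, Dusp10, Spry1 and Nf1, none was called in the DS in any experience, and their median log2 fold change at the peak was 0.10, -0.04 and 0.15 against -0.06, -0.05 and -0.04 over all genes. Among 14 ligands and receptors, Hbegf, an EGF receptor ligand, rose after acute (log2 fold change 0.81, adjusted p 0.00156) and challenge cocaine (0.63, adjusted p 0.0319), and the BDNF receptor gene Ntrk2 fell by 0.29 after acute cocaine. Over all genes 1.54% were called higher and 1.08% lower after acute cocaine, and 0.635% higher after challenge. Of 27 adaptors, Ras proteins and kinases, Mknk2, a kinase downstream of ERK, rose after acute cocaine (0.69, adjusted p 0.00644). None of 11 kinases of the JNK, p38 and ERK5 branches was called. Of 15 ERK-responsive transcription factors, Fosl2 rose in all 3 experiences, by log2 2.60, 1.86 and 1.99, Srf after acute (0.41) and Klf10 after challenge cocaine (0.55). The list medians of these 15 genes were 0.39, 0.34 and 0.29.

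Over the 48 DS mice, with each experience centred on its own mean, the tested genes whose log2 CPM followed Dusp1 most closely were Junb (Pearson r = 0.958), Arc (0.945) and Fos (0.911). Dusp5 followed Junb (0.893), Tiparp (0.884) and Dusp1 (0.871). For Dusp6 the closest genes were Nr4a1 (0.885), Midn (0.860) and Egr2 (0.859), and for Dusp14 Dnajb5 (0.914), Peli1 (0.882) and Egr1 (0.878). Among the members themselves, r was 0.795 for Dusp1 with Dusp6 and 0.455 for Dusp1 with Dusp14. These mice share time points and libraries with the comparisons above, so the coefficients describe the time courses and carry no test.

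Did prior exposure change the 1 hr response? The difference of the 1 hr responses between experiences was tested in the DS, and no member and no gene passed (0 of 12918, 0%, in each of 3 contrasts, edgeR, with 649, 676 and 435 genes at an unadjusted p under 0.05). DESeq2 called 1, 0 and 0 genes, and without a filter on low counts 27, 30 and 0 were called. The most under any alternative for challenge minus repeated was 2. Leaving out the naive replicate 4 gave 16 genes for repeated minus acute and 15 for challenge minus acute. None of these was a member. For Dusp1 the repeated minus acute difference was 0.54 ± 0.24 (95% interval 0.07 to 1.01, adjusted p 0.976) and the challenge minus acute difference 0.06 ± 0.24. Dusp14 gave -0.23 ± 0.26 and -0.57 ± 0.26, Dusp5 0.26 ± 0.32 and -0.20 ± 0.32, and Dusp6 -0.29 ± 0.25 and -0.29 ± 0.25. For Spry4 both differences were -1.27 and -1.26 with SE 0.57. The acute libraries of the DS came from a different run than the repeated and challenge ones, and each experience came from its own cohorts of mice, so that cohort and experience cannot be told apart in any comparison between experiences. In a run that held second libraries of 2 mice per group from all 3 experiences, the corresponding differences were 0.20 ± 0.34 for Dusp1 (repeated minus acute), -0.62 ± 0.27 for Dusp14 (challenge minus acute) and -0.60 ± 0.76 and 1.68 ± 0.89 for Spry4. The sign of the Spry4 challenge difference therefore turned between runs. So did those of Dusp1 for challenge minus acute (-0.346 ± 0.335 in the shared run) and of Dusp6 and Dusp14 for repeated minus acute (0.093 ± 0.381 and 0.061 ± 0.273). Both Dusp5 differences kept their sign. In the Amy and LH, where acute and repeated mice shared a run, no member differed (0 of 12890 genes in the Amy, with 521 at an unadjusted p under 0.05, and 1 of 13243, 0.00755%, in the LH).

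The same shared run gave a second reading of the time courses, from the same animals and so not independent of the first. Dusp4 was left out there by the low-count filter. Dusp1 rose after acute (45.9 and 45.0 CPM at 0 hr, 134 and 155.4 CPM at 1 hr), repeated (20.1 and 32.7, then 89.7 and 104.7 CPM) and challenge cocaine (39.2 and 47.7, then 89.0 and 129 CPM). Dusp14 was called after acute and repeated cocaine (log2 1.14 for acute, fold 2.3 for repeated) but not challenge (0.60, adjusted p 0.258), and Dusp5 after repeated cocaine (2.58, adjusted p 0.0386). Dusp5 after acute cocaine (1.83, adjusted p 0.21) and Dusp6 after acute (0.83, adjusted p 0.369) and repeated cocaine (0.93, adjusted p 0.229) were not called. The share of 12297 genes called higher was 0.301%, 0.187% and 0.317%. After challenge, Dusp5 and Dusp6 were called with their extreme at 4 hr, below 0 hr, at log2 -1.86 (adjusted p 0.022) and -0.85 (adjusted p 0.00482), where 0.211% of genes were called lower. At 1 hr they stood above 0 hr there as well: Dusp5 went from 9.16 and 13.8 CPM to 19.2 and 30.2 CPM and then to 2.84 and 3.32 CPM at 4 hr (4 and 6 counts), and Dusp6 from 58.9 and 63.9 CPM to 97.6 and 104.1 CPM and then 35.5 and 32.7 CPM. In the full set of challenge mice the 4 hr differences of Dusp5 and Dusp6 were -0.59 ± 0.23 and -0.08 ± 0.18, and neither passed.

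Are the levels at 0 hr shifted by repeated cocaine or abstinence? Of the members, Dusp14 was higher in the DS of abstinent mice. Against mice 24 hr after the 4th dose, sequenced in the same run, the abstinent mice (217, 225 and 122 CPM, against 75.9, 108.6, 99.3 and 107.5 CPM) differed by log2 0.94 ± 0.19 (adjusted p 0.00392), where 0.565% of genes were called higher. Every abstinent mouse was above every repeated mouse. The call was lost without abstinent replicate 1 (0.83, adjusted p 0.078) or replicate 2 (0.79, adjusted p 0.0608). In the shared run, second libraries of abstinent replicates 1 and 2 stood at 176 and 207 CPM and those of 2 naive mice at 119 and 97.5 CPM, a difference of 0.84 ± 0.20 (adjusted p 0.00711), where 2.05% of genes were called higher. That call was lost without the naive replicate 4 (0.70, adjusted p 0.212) or abstinent replicate 2 (0.71, adjusted p 0.118), and in DESeq2 (0.84, adjusted p 0.055). The abstinent mice are the same in both comparisons, and the groups compared are of different cohorts throughout. In mice after the 4th dose Dusp14 was not called against naive mice in the shared run, at 76.4 and 126.6 CPM (-0.08 ± 0.20, 95% interval -0.48 to 0.32), where 1.02% of genes were called higher and no member was.

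The higher Dusp14 level of challenge mice against repeated mice of the same run was also seen after the dose: 295 to 345 against 180.2 to 255.3 CPM at 1 hr, 296 to 398 against 138 to 266 CPM at 2 hr, and 198 to 286 against 91.5 to 119 CPM at 4 hr, with no overlap at any time. In the shared run the groups overlapped at 1 hr, where challenge mice stood at 251 and 296 CPM and repeated mice at 265 and 198 CPM, and did not overlap at 2 hr (281 and 293 against 193 and 117 CPM) or 4 hr (276 and 236 against 88.5 CPM in both). These later times were not tested between experiences, and how many of all genes separate between such small groups was not counted. Oligodendrocyte genes moved with this comparison: 3 of 4 (of Mog, Mag, Mobp and Cnp) were lower in abstinent mice, the sum of the 4 being 1417 to 1685 CPM against 1970.4 to 2535 CPM, and 2 of 4 were lower in the shared run. Their part in the Dusp14 result was not tested. None of 6 striatal projection neuron and 5 astrocyte markers was called in the first comparison, and 1 of each list was higher in the second. Dusp4 was 2.37, 1.27 and 3.02 CPM in abstinent mice and 0, 0.65, 0 and 0.58 CPM after the 4th dose, with an adjusted p of 0.054. In the Amy and LH no member differed between repeated and naive mice at 0 hr (6 and 232 genes called in either direction, 0.0465% and 1.75%). With 1 of the 0 hr mice left out these counts were 0 to 4 in the Amy and 46 to 166 in the LH, with no member among them. The lowest adjusted p there was that of Dusp14 in the LH, at log2 -0.66 ± 0.24 (adjusted p 0.168).

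**Figure D3:**
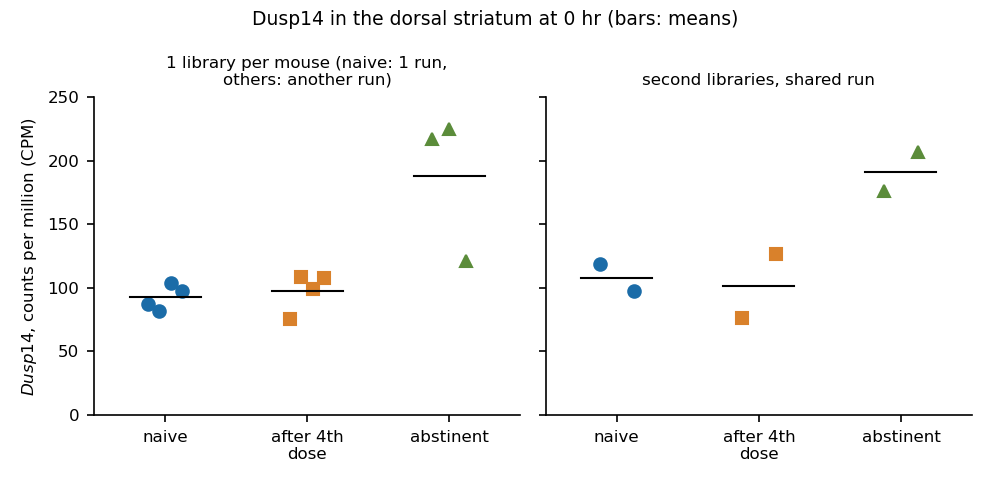
Dusp14 in the DS at 0 hr (vertical axis, CPM) in naive mice, mice 24 hr after the 4th dose and abstinent mice, with 1 point per library and bars at the means. Left, 1 library per mouse, the naive mice from another run than the rest. Right, second libraries of 2 mice per group in 1 shared run, where the abstinent libraries stand at 176 and 207 CPM and the other 4 between 76.4 and 127 CPM.

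Spry2 and Spred1 at 0 hr stood lower in the main DS libraries of naive mice, which came from another run than the rest. Spry2 stood at 40.3 to 49.8 CPM in naive mice, 86.7 to 117 CPM after the 4th dose and 105.8 to 118 CPM in abstinent mice. Spred1 stood at 156 to 217, 256 to 286 and 271 to 310 CPM in the same groups. Second libraries of naive replicates 3 and 4, in the shared run, stood at 104.7 and 112.9 CPM of Spry2 and at 322.6 and 274.0 CPM of Spred1. In the shared run the log2 differences from naive mice were -0.03 ± 0.17 and 0.09 ± 0.17 for Spry2, and -0.17 ± 0.13 and -0.03 ± 0.13 for Spred1. Across the 28 samples with 2 libraries, which pool several structures and runs, the log2 difference between the library used and the other one was averaged. The mean was -0.42 ± 0.49 (SD) for Spry2 and -0.08 ± 0.32 for Spred1. Over the 10 members it ran from -0.63 for Spry4 to 0.86 for Dusp4, both of low counts, and was 0.05 for Dusp14. Experience and run cannot be told apart in the main DS libraries of acute mice, so no test between them is given.

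How far did the response extend beyond the DS? In the other 4 structures Dusp1 was the sole member called in any time test, and it was called in 4 of 12. In the NAc, acute cocaine took it from 19.7, 22.5, 18.9 and 19.8 CPM to 29.5, 31.3, 35.7 and 40.1 CPM at 1 hr (log2 0.75 ± 0.15, adjusted p 0.0255), where 0.154% of 12966 genes were called higher. The groups did not overlap, but the call was lost in 6 of 8 repeats that left out 1 mouse. NAc challenge gave 18.5 and 22.8 CPM at 0 hr and 33.8, 26.2, 38.5 and 42.2 CPM at 1 hr (0.83 ± 0.18, adjusted p 0.00831, with 0.0848% of genes called higher), and was called over all times but not in the contrast of 1 hr alone (adjusted p 0.0667). It was lost without 1 hr replicate 3 (adjusted p 0.0682) or 4 (adjusted p 0.0674), and with challenge mice fitted alone (adjusted p 0.165). NAc repeated mice showed 20.01 and 17.4 CPM, then 35.1 and 43.3 CPM (1.06 ± 0.21), which passed for 1 hr alone (adjusted p 0.0218, with 0.054% of genes called higher) but not over all times (adjusted p 0.0704, with 0.0386% called higher).

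In the Amy after challenge, Dusp1 was 21.9, 21.2 and 21.9 CPM at 0 hr, 34.6, 37.6, 32.9 and 31.5 CPM at 1 hr, and 27.7, 27.8, 32.7 and 30.5 CPM at 2 hr. The 1 hr difference was 0.64 ± 0.14 (adjusted p over all times 0.00242, with 0.109% of 12890 genes called higher), and the call held in all 7 repeats without 1 of the 0 or 1 hr mice. Amy repeated mice gave 13.7 and 16.2 CPM, then 30.3 and 22.2 CPM (0.81 ± 0.20, adjusted p 0.0723, with 0.0233% of genes called higher), and after acute cocaine, with 0.0853% of genes called higher, no member was. In the LCtx, repeated cocaine took Dusp1 from 20.4 and 32.5 CPM to 69.9 and 64.1 CPM (1.31 ± 0.25, adjusted p 0.0148, with 0.0462% of 12991 genes called higher), lost in 3 of 4 repeats with 1 mouse left out: without 0 hr replicate 1 (adjusted p 0.228) or 1 hr replicate 1 (0.404) or 2 (0.215). The 4 hr group of the LCtx held a single mouse after acute and after repeated cocaine and was left out of the test. LCtx acute and challenge values at 1 hr were 0.54 ± 0.21 and 0.14 ± 0.22 and did not pass, with 0.285% and 0.0924% of genes called higher. The number of genes called in either direction after acute cocaine, 39, rested on single mice: it was 298 without 1 hr replicate 1 and 1 without 1 hr replicate 2, with no member called in either case.

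No member was called in the LH, where 0.0453%, 0.0227% and 0% of 13243 genes were called higher after acute, repeated and challenge cocaine and 648, 637 and 932 had an unadjusted p under 0.05 in edgeR. In DESeq2, 30 genes were called after challenge. Dusp1 there was 14.5 and 15.3 CPM at 0 hr and 20.3 and 26.2 CPM 1 hr after acute cocaine (0.65 ± 0.24, adjusted p over all times 0.185). The 0 and 1 hr mice did not overlap there, and the unadjusted p was 0.000158 in edgeR. The LH groups held 2 mice each, apart from 1 challenge mouse at 0 hr. Dusp5, Dusp6 and Dusp14 were called in none of the 12 tests outside the DS. For Errfi1 after challenge, the 1 hr log2 difference was 0.41 ± 0.12 in the Amy (adjusted p over all times 0.119), 0.43 ± 0.16 for NAc (0.195) and 0.55 ± 0.18 for LCtx (0.7), and none passed. The Amy challenge mice came from 2 runs, and with run as a covariate Errfi1 was called in the Amy. Whether the response of a member differed between structures was not tested, since the DS shared a run with no other structure.

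**Figure D4:**
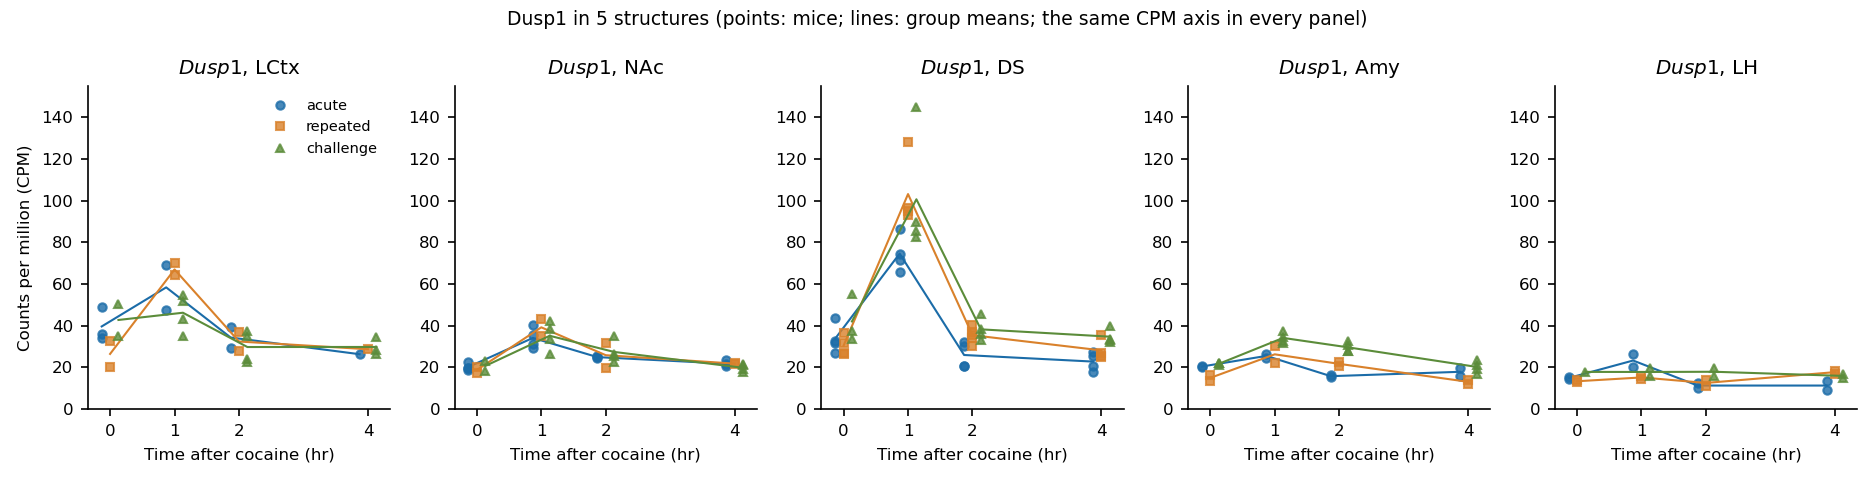
Dusp1 in the 5 structures (vertical axes, CPM, the same scale in every panel) against time after cocaine (horizontal axes, hr), with 1 point per mouse and a line through the group means of each experience. The DS points at 1 hr reach 65.8 to 145 CPM, while those of the NAc, Amy and LH stay at or under 43.3 CPM at every time. The LCtx points reach 69.9 CPM at 1 hr and so overlap the DS range.

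How do the resting and treated levels differ between structures? The challenge libraries of the LCtx, NAc, Amy and LH came from 2 common runs, and their levels were compared with time and run in the model (49 libraries, 12657 genes, of which 35.7% to 56.3% were called in a given pair). The 49 libraries came from 15 animals by the labels' numbers, and the model did not pair the structures of an animal. With the animal as a block in place of time and run, the same members were called in each of the 6 pairs. With each run fitted alone, some calls between structures were lost and others gained, and these are given gene by gene. Of 9 members tested, 5 differed between LCtx and NAc, 4 between LCtx and Amy, 8 between LCtx and LH, 6 between NAc and Amy, 9 between NAc and LH and 7 between Amy and LH, with Dusp4 too rare to test. Shares of all genes called in these pairs were 43.2%, 35.7%, 56.3%, 43.5%, 56% and 44.4%. A difference between structures was thus common over all genes.

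Dusp14 was ordered LCtx over NAc over Amy over LH, at 142 ± 13.2 (SD, n = 13), 104.8 ± 9.77 (n = 14), 73.3 ± 4.74 (n = 15) and 28.6 ± 5.35 CPM (n = 7), and every neighbouring pair differed, the last by log2 1.39 ± 0.08, also within each run. The LH was lowest for Dusp1 as well (17.3 ± 1.97 CPM), against LCtx 36.8 ± 10.5, NAc 26.5 ± 7.85 and Amy 26.7 ± 6.32 CPM. Between NAc and Amy no Dusp1 difference was called (log2 0.002 ± 0.095, 95% interval -0.184 to 0.189). The Dusp1 difference between LCtx and NAc was log2 0.58 ± 0.12 in one run and 0.31 ± 0.15 in the other, where it was not called (adjusted p 0.0873). Dusp6 stood at 45.0 ± 6.83 CPM in the Amy and 39.3 ± 12.04 CPM in the LCtx, a pair that was not called, then at 29.1 ± 7.46 in the NAc and 16.8 ± 2.68 in the LH. The order of LCtx and Amy turned with the run: LCtx mice stood at 43.9 to 61.4 CPM and Amy mice at 41.9 to 60.9 CPM in one run (log2 0.13 ± 0.10, adjusted p 0.352), and at 26.0 to 32.6 against 35.2 to 53.7 CPM in the other (-0.47 ± 0.11, adjusted p 0.000363). The Dusp6 difference between LCtx and NAc was log2 0.47 ± 0.09 over both runs, 0.61 and 0.32 in each, and 1.16 ± 0.10 in repeated mice of another run. Dusp5 stood at 7.89 ± 3.49, 6.05 ± 1.76 and 6.04 ± 2.31 CPM in LCtx, NAc and Amy, with no pair of these called, and at 3.12 ± 1.03 CPM in the LH. Within single runs LCtx exceeded NAc for Dusp5 in one (log2 0.54, adjusted p 0.045), and the Dusp5 difference between Amy and LH was lost in the other (0.90, adjusted p 0.103).

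The Sprouty genes were ordered differently from each other. Spry2 was highest in the NAc (40.2 ± 8.44 CPM), which exceeded the Amy (32.2 ± 5.72) but not the LCtx (34.7 ± 5.57, adjusted p 0.053), and lowest in the LH (16.5 ± 3.49). The Spry2 difference between NAc and Amy was seen in one run (log2 0.59 ± 0.09) and not in the other (0.06 ± 0.14, adjusted p 0.772). In the first of these runs alone, Spry2 was also called higher in the LCtx than in the Amy (0.36 ± 0.10, adjusted p 0.00318). Spry4 was highest in the LH (11.8 ± 1.70 CPM), above the Amy (8.01 ± 2.31), LCtx (6.72 ± 2.95) and NAc (5.68 ± 2.83). The Spry4 difference between Amy and LH did not pass when 0 hr mice were left out (log2 -0.44, adjusted p 0.0669) or in either run alone (adjusted p 0.0566 and 0.348), and in 1 of the 2 runs those of Spry4 between LCtx and LH (adjusted p 0.0842) and between NAc and Amy (0.124) did not either. Spred1 had LCtx 172 ± 23.4, NAc 157 ± 20.01, Amy 124 ± 8.95 and LH 123 ± 14.4 CPM, with neither LCtx and NAc nor Amy and LH being called as different. Between LCtx and NAc the Spred1 difference was log2 0.16 ± 0.06 (adjusted p 0.0104), under the fold of 1.2. Spred2 was 75.3 ± 8.77, 45.4 ± 6.0, 55.4 ± 6.74 and 37.9 ± 2.92 CPM in the same order, its difference between NAc and LH being lost in 1 run (log2 0.25, adjusted p 0.171). In that run alone, Spred2 was called lower in the NAc than in the Amy (-0.33, adjusted p 0.0077). Errfi1 was lowest in the NAc (38.5 ± 7.48 CPM) and was not called between any pair of LCtx (52.2 ± 11.02), Amy (54.9 ± 8.64) and LH (58.3 ± 8.60).

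The cellular makeup of the dissections moved with these levels: oligodendrocyte genes summed to 2761 to 5131 CPM in LH libraries, 323 to 979.8 CPM for LCtx, 962 to 2289.9 CPM for NAc and 926 to 1991 CPM for Amy. The sum of 4 genes of cortical and amygdalar excitatory neurons was 1004 to 1875 CPM in the LCtx and 549 to 1400.4 CPM in the Amy. It was 32.9 to 602 CPM in the NAc and 84.5 to 137 CPM in the LH. Among these 4 structures, LCtx and Amy also had more Dusp6. In the DS, sequenced in its own runs, that sum was 5.9 to 72.0 CPM, and Dusp6 stood at 58.4 ± 17.6 CPM in challenge mice. Microglia genes were lowest in the LH (192 to 269.8 CPM, against at least 272 CPM elsewhere). Their part in the member levels was not tested. In other mice of a common run, 7 of the 9 members differed between Amy and LH after acute and repeated cocaine (44.7% of 12041 genes) and 7 between LCtx and NAc after repeated cocaine (40.9% of 11989 genes). In these, Dusp14 was again higher in the Amy than the LH (log2 1.46 ± 0.07) and for LCtx over NAc (0.89 ± 0.07, against 0.47 in challenge mice), while Dusp1 differed less between Amy and LH (0.38, against 0.69 in challenge mice). Unlike in challenge mice, Spred1 (0.32 ± 0.06, adjusted p 8.14e-06) and Spry4 (0.62 ± 0.25, adjusted p 0.0419) were called higher in LCtx than in NAc. With the animal as a block the same 7 members were called between Amy and LH, and Dusp5 was added between LCtx and NAc. The DS came from its own runs, and its levels are given as values only: over 15 challenge mice Dusp14 was 274 ± 69.6 CPM, Spry2 115 ± 12.4, Spred1 293 ± 16.8, Dusp6 58.4 ± 17.6 and Errfi1 52.8 ± 6.07 CPM. Structure and run cannot be told apart for these.

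**Figure D5:**
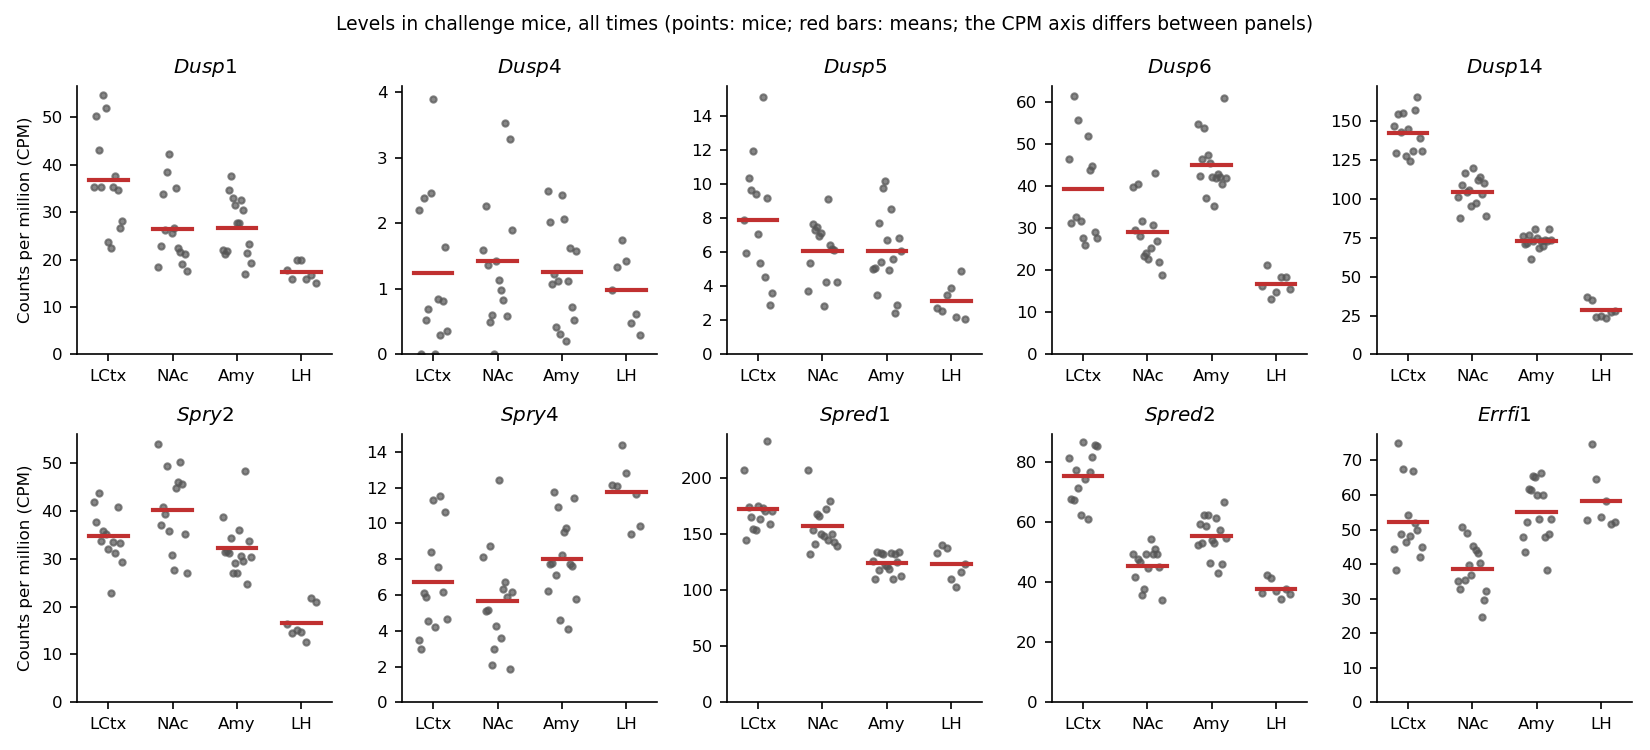
Level of each member (vertical axes, CPM, a separate scale per gene) in the challenge mice of the LCtx, NAc, Amy and LH, all times together, with 1 point per mouse and red bars at the means. Dusp14 falls from 142 CPM in the LCtx to 28.6 CPM in the LH with no overlap between the LH and the rest, and Spry4 has its highest mean, 11.8 CPM, in the LH.

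Cell-type markers were read beside the DS time tests. After acute cocaine 3 of 8 endothelial genes were called higher, and their sum was 176 to 237 CPM at 0 hr, 185 to 201 CPM at 1 hr and 282 to 326 CPM at 4 hr. Their part in the member results was not tested. Of the 5 astrocyte and 4 choroid plexus genes, 1 each was lower after acute cocaine and 1 choroid plexus gene after repeated cocaine. Striatal projection neuron, oligodendrocyte, microglia and blood genes were not called over time in any DS experience in the main libraries. In the shared run 1 of 2 tested blood genes was higher after challenge. In the NAc after challenge, where Dusp1 was called, 1 of 4 oligodendrocyte genes was higher, the sum of the 4 being 985 to 1304 CPM at 0 hr and 1310 to 1554 CPM at 1 hr, and its part was not tested. Some members share their locus with other annotated genes in GENCODE M21: an antisense gene overlaps the 5′ part of Dusp5 and of Errfi1, and Dusp1 spans pseudogenes and the first bases of Ergic1 on the opposite strand. The nearest of these lies 12776 bases from the 3′ end of Dusp5, 13943 bases from that of Errfi1 and 19477 bases from that of Dusp1. Small RNA genes lie opposite Spry4, 7911 bases or more from its 3′ end. Strand use in the counting was not given in the sources used here, so reads of such pairs cannot be told apart.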

How the data were processed

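3′ RNA-seq was made from mouse brain tissue of 5 structures. The deposited values are counts of reads per gene with unique molecular identifiers, which the authors obtained by alignment with STAR to GRCm38 and counting with HTSeq (versions not given in the sources used here). The table held 1193306 to 10367769 counts per library, which limits genes such as Dusp4 to a few counts. Groups were taken from the labels. CPM are counts over the library total. Tests used edgeR 4.0.16 (quasi-likelihood, TMM scaling, filterByExpr) in R 4.3.3, fitted genome-wide with 1 model per structure, a coefficient per experience and time and 1 library per mouse. P-values were adjusted by Benjamini-Hochberg over all genes tested, and genes with an adjusted p under 0.05 and a fold over 1.2 were called. Intervals are the estimate ± 1.96 SE. The 2 single 4 hr LCtx mice were left out. The code was tested on simulated data. DESeq2 1.42.0, RLE scaling, other filters, replicate blocks and leaving out mice were tried as alternatives. The members are named throughout. Pathway genes are named where called in the DS, and the 3 genes closest to each called member are named where r was 0.8 or more. The members and lists were chosen with earlier results of these data known. Replicates are separate mice per the labels. A marker gene of the oligodendrocyte list is not reported here and was left out of its counts and sums.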

Additional observations from a re-analysis of the deposited data

Results flagged for a closer look

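The 10 members were each read in the 21 groups of 4 or 5 mice, which gave 210 sets of values. In 12 of them 1 mouse stood far from the rest by Dixon's criterion, which chance alone gives in about 1 of 20 sets, and the members of a group share their mice. Several fall on the phosphatases in the DS. Dusp1 stood at 145 CPM in challenge 1 hr replicate 2, against 82.5 to 89.7 CPM in the other 3 mice, and at 128 CPM in repeated 1 hr replicate 2, against 92.9 to 96.2 CPM. Dusp5 stood at 28.8 CPM in repeated 1 hr replicate 4, against 18.8 to 19.9 CPM. Dusp14 was low in repeated 2 hr replicate 5, at 138 CPM against 238 to 266 CPM. Every one of these mice still lay above the 0 hr mice of its experience.

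In the DS, Spred2 stood at 68.8 CPM in acute 2 hr replicate 3 (others 57.5 to 58.4) and at 76.6 CPM in challenge 1 hr replicate 3 (others 72.6 to 73.3). Errfi1 stood at 68.3 CPM in repeated 4 hr replicate 4 (others 48.4 to 51.1), and Dusp4 at 2.97 CPM, 11 counts, in acute 4 hr replicate 3 (others 0.40 to 0.83).

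In the Amy after challenge, Dusp6 stood at 35.2 CPM in 2 hr replicate 2 (others 42.0 to 42.8) and at 60.9 CPM in 4 hr replicate 3 (others 40.5 to 42.2), and the same 4 hr mouse had 80.7 CPM of Dusp14 (others 73.1 to 73.5). Dusp5 in the NAc was 4.27 CPM, 9 counts, in challenge 4 hr replicate 4 (others 6.09 to 6.43). Of 100 pairs of experiences compared by direction alone, 1 was opposed in every mouse: Dusp4 in the LH had means of 1.54 CPM at 1 hr and 0.98 CPM at 0 hr after challenge, and 0.28 and 0.72 CPM after acute cocaine. Behind these means were 5 counts in the single 0 hr mouse and 8 counts in each 1 hr mouse after challenge. After acute cocaine they were 3 and 2 counts at 0 hr and 1 count in each 1 hr mouse. Dusp4 did not pass the low-count filter in the LH, and the difference was not tested.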

How the results depend on the processing

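Of the alternative values for the log2 fold changes of called members, 531 kept their direction and their side of the threshold, 33 no longer passed and 2 turned in direction: Dusp5 (-1.859) and Dusp6 (-0.850) after challenge in the DS shared run alone, which took their extreme from 4 hr. The number of members called changed as follows. Without a filter on low counts it was 7 in DS acute (Spred2, Spry2 and Spry4 added), 1 in LCtx acute, LCtx challenge, NAc repeated, Amy repeated and LH acute, and 2 in NAc challenge and Amy challenge. With the 2 steps of the study it was 1 in LCtx challenge, NAc repeated, Amy acute and Amy repeated. With DESeq2 it was 1 in NAc repeated and 0 for 0 hr challenge minus acute in the shared run, and Dusp14 after DS challenge was not called (0.859, adjusted p 0.0622). With run as a covariate it was 2 in Amy challenge (Dusp1 and Errfi1), with NAc challenge fitted alone 0, and in the DS shared run after acute cocaine 2. The causes were not tested.

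With 1 mouse left out at a time, the number of members called went from 0 to 1 in LCtx repeated, NAc acute, NAc challenge, Amy repeated, DS 0 hr challenge minus repeated and 0 hr challenge minus acute in the shared run. It was 4 throughout in DS acute and DS repeated, and 3 to 4 in DS challenge. Counts of all genes called ranged from 169 to 490 with 1 mouse left out and from 37 to 571 under the other alternatives in DS acute (339 as reported), from 54 to 58 and from 26 to 112 in DS repeated (62), from 65 to 79 and from 65 to 150 in DS challenge (87), and from 23 to 208 and from 83 to 364 at 0 hr, DS challenge minus repeated. In the shared run at 0 hr they went, with 1 mouse left out, from 59 to 173 for repeated minus acute (229) and from 103 to 236 for challenge minus acute (428), and under the other alternatives from 4 to 324 and from 33 to 494. The lowest of these, 4 and 33, came with the replicate block, where Dusp14 for challenge minus acute was 1.532 (adjusted p 0.0117) against 0.836 without it. The challenge and acute mice at 0 hr of that run share no replicate number. Replicate numbers were not shown to pair mice: deviations of same-numbered mice had mean correlations of -0.01 to 0.13, and the lowest pair was at -0.21. The highest mean was that of DS repeated, whose numbers partly follow its 2 cohorts, and with cohort as a covariate 4 members and 71 genes were called there. With a replicate block, 5 members were called in DS acute (Spry2 added), 4 in DS repeated and 4 in DS challenge, but 0 in NAc acute (Dusp1 0.744, adjusted p 0.0866), and no other count of members called in a time or 0 hr test moved. Between structures the animal served as the replicate block: it changed no member call in challenge mice, and gave 8 members for LCtx minus NAc in the other mice (Dusp5, Spred1 and Spry4 added to the 5 of challenge mice). TMM and RLE scaling moved the median of all genes by less than 0.1. Between structures, 8 member calls were lost with a run fitted alone. Other mice, with and without the animal block, single runs and the LCtx without its blood-rich mouse were chosen as alternatives after seeing the data. Depth limits Dusp4 and Spry4.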
